A study of Rattus norvegicus with 9 samples.

Results

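The endocannabinoid genes described here are the cannabinoid receptor gene Cnr1 and the genes of 7 enzymes that make or break down its ligands, namely Dagla, Daglb, Mgll, Faah, Napepld, Abhd6 and Abhd12. They were chosen by symbol, with earlier results of these data known. All 8 were found among the 37209 genes of the count table and among the 16837 genes tested. The data came from the frontal cortex of 9 male Wistar rats aged 14 weeks, 3 in each of the Control, MS and MS+EA groups. MS rats had undergone maternal separation for 4 h per day from postnatal day (PND) 1 to PND 21, while Control litters were left with their mothers. MS+EA rats had the same separation and then electroacupuncture at the acupoints GV20 and GV29 every other day from PND 61 to PND 81. According to the study's methods, Control and MS rats received the anaesthesia alone, so that rats of all groups had been anaesthetized. No sham-treated group was sequenced, and the litter of each rat was not given in the sources used here, so an effect of litter cannot be told apart from that of the group.

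Endocannabinoids are lipid messengers that postsynaptic neurons release on demand and that act backwards on the CB1 receptor of the presynaptic terminal, where they reduce transmitter release. The main ligand in the cortex is 2-arachidonoylglycerol (2-AG), made by the diacylglycerol lipases and removed by monoacylglycerol lipase and the hydrolases ABHD6 and ABHD12. The other ligand, anandamide, can be formed by NAPE-PLD and is hydrolysed by FAAH. In the cortex Cnr1 is known for its high expression in cholecystokinin interneurons and its lower, wider expression in excitatory neurons. The comparison of the groups asks whether early separation, or later electroacupuncture, came with a different level of these transcripts.

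Between MS and Control rats none of the 8 genes was differentially expressed, and the means of 7 of them differed by less than 10% in either direction. In MS+EA rats Dagla, Mgll, Daglb and Abhd12 stood lower than in Control rats, at 0.838, 0.843, 0.868 and 0.896 times the Control level, and none of these differences passed edgeR's test after adjustment over all tested genes. Expression is given as CPM, a gene's counts scaled to a common library total with edgeR's TMM factors, and differences as log2 fold changes of edgeR's quasi-likelihood fit to all 9 rats. A gene was called at a Benjamini-Hochberg adjusted p under 0.05 together with a fold change above 1.5. By this rule 0 of the 8 genes were called in MS against Control, where 0.0238% of all tested genes were called, and 0 in MS+EA against MS, where 0.0178% were. In MS+EA against Control 0 of the 8 were called against 1.37% of all tested genes, and at an adjusted p under 0.05 alone 0 against 5.4%. The number called was also 0 in each comparison with limma-trend and with DESeq2, which gave Faah no adjusted p because of its low counts. At an adjusted p under 0.05 alone DESeq2 gave 1 of the 8, Dagla, in MS+EA against Control (adjusted p = 0.0257). The share of all tested genes that passed this threshold with DESeq2 is not given here. With the fold change limit DESeq2 called 316 genes in that comparison, and edgeR called 230. At an unadjusted p under 0.05, edgeR gave 0 of the 8 genes in MS against Control (10.6% of all tested genes), 2 lower in MS+EA than in MS rats (6.42%) and 4 lower than in Control rats (10.6%). The same counts were 1, 1 and 4 with DESeq2, where 1626, 1887 and 3565 of the 16837 tested genes passed in either direction. With limma-trend they were 0, 2 and 4, where 1708, 2123 and 3766 passed. The 1 gene of DESeq2 in MS against Control was Faah (unadjusted p = 0.0426). Its log2 fold change rested on the MS rat B3 and was -0.24 in edgeR without that rat.

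The libraries held 12479905 to 19007907 counts, and each MS+EA library was smaller than each of the others, with at most 14913736 against at least 16106381. Genes typed as non-coding took 1.90% to 2.13% of the counts in MS+EA rats and 1.62% to 1.85% in the other rats. Groups of 3 rats are too small for an exact permutation test, whose smallest two-sided p is 0.1. All p-values set the group differences against the spread within the groups of these 9 rats, estimated in part from all tested genes together. Fewer cells of a type and less RNA per cell cannot be told apart in such bulk tissue.

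Cnr1, which encodes the CB1 receptor, had 447, 507 and 462 CPM in the Control group (A1, A2, A6). The MS group (B3, B4, B6) had 422, 526 and 559 CPM. The MS+EA group (C3, C10, C16) had 380.2, 569.8 and 532 CPM. The 3 groups overlapped, and the lowest and the highest rat of all were both in the MS+EA group. The group means were 472 ± 31.2, 502 ± 71.9 and 494 ± 100.3 CPM (SD, n = 3 each) in Control, MS and MS+EA rats. The log2 fold change was 0.09 in MS against Control rats, with a 95% interval of -0.20 to 0.39 (edgeR adjusted p = 0.860). In MS+EA against MS rats it was -0.02, with an interval of -0.32 to 0.27 (edgeR adjusted p = 0.962), and its sign turned when total counts replaced TMM or when B4, B6 or C3 was left out. The coefficient of variation of the receptor transcript was 20.3% in MS+EA rats, 14.3% in MS rats and 6.62% in Control rats.

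Dagla encodes DAGL alpha, the lipase that makes most of the 2-AG of adult synapses. Its level was 221, 189 and 216 CPM among Control rats, 217, 211 and 191 CPM among MS rats, and 179, 176 and 169 CPM among MS+EA rats. The Control and MS rats overlapped, whereas each MS+EA rat lay below each of the other 6. The means were 209 ± 17.3 CPM (SD, n = 3) in Control, 206 ± 13.7 CPM (SD, n = 3) in MS and 175 ± 5.03 CPM (SD, n = 3) in MS+EA rats. Dagla differed by -0.24 on the log2 scale in MS+EA against MS rats (95% interval -0.40 to -0.08, edgeR adjusted p = 0.260). Against Control rats it was -0.25 (95% interval -0.42 to -0.09, edgeR adjusted p = 0.0675). The adjusted p of the latter was 0.0257 with DESeq2's Wald test, 0.0489 with edgeR when all genes with at least 1 count were tested and 0.0459 with edgeR without the Control rat A2, and over all 17 alternatives it lay between 0.0257 and 0.237. In MS against Control rats the difference was -0.01 (95% interval -0.18 to 0.15, edgeR adjusted p = 0.969).

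Daglb encodes DAGL beta, the related lipase best known from microglia and macrophages. The Control rats had 38.1, 37.7 and 38.8 CPM, the MS rats 35.9, 35.6 and 38.1 CPM, and the MS+EA rats 31.4, 30.7 and 37.4 CPM. All 3 MS+EA rats lay below the Control rats, but C16 lay within the range of the MS rats. For Daglb the log2 fold change in MS+EA against Control rats was -0.20 (95% interval -0.40 to -0.01, edgeR adjusted p = 0.206). Against MS rats it was -0.14 (95% interval -0.34 to 0.06, edgeR adjusted p = 0.550), and in MS against Control rats -0.06 (95% interval -0.26 to 0.13, edgeR adjusted p = 0.853).

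Mgll encodes monoacylglycerol lipase, the main enzyme of 2-AG breakdown. It was counted at 64.8, 55.7 and 65.2 CPM among Control rats, at 62.6, 59.5 and 57.0 CPM among MS rats, and at 55.0, 53.1 and 48.4 CPM among MS+EA rats. Every MS+EA rat was lower than every other rat, with C3 close below the Control rat A2. The means were 61.9 ± 5.36, 59.7 ± 2.79 and 52.2 ± 3.40 CPM (SD, n = 3 each). Its log2 fold change was -0.19 in MS+EA against MS rats (95% interval -0.38 to -0.01, edgeR adjusted p = 0.379) and -0.25 against Control rats (95% interval -0.43 to -0.06, edgeR adjusted p = 0.107). MS and Control rats differed by -0.05 on the log2 scale (95% interval -0.24 to 0.13, edgeR adjusted p = 0.871).

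Abhd12 encodes a further 2-AG hydrolase, which is also a lysophosphatidylserine lipase. The Control rats had 118, 118 and 109 CPM, the MS rats 109.8, 118 and 109.7 CPM, and the MS+EA rats 102, 103 and 105 CPM. The MS+EA rats overlapped with neither of the other groups. Its log2 fold change was -0.16 in MS+EA against Control rats (95% interval -0.30 to -0.02, edgeR adjusted p = 0.165) and -0.12 against MS rats (95% interval -0.26 to 0.02, edgeR adjusted p = 0.453). This gene varied least between rats of a group, with a biological coefficient of variation of 6.23% in the edgeR fit. The same measure was 7.18% for Dagla, 7.83% for Mgll, 7.87% for Abhd6, 8.18% for Daglb, 11.7% for Napepld and 12.1% for Cnr1. It was 60.8% for Faah, and 12.7% was the common value of all tested genes.

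Abhd6, whose product removes 2-AG on the postsynaptic side, had 57.4 to 61.6 CPM in Control rats, 53.2 to 62.3 CPM in MS rats and 49.8 to 58.6 CPM in MS+EA rats. These ranges overlapped. Abhd6 had a log2 fold change of -0.13 in MS+EA against Control rats (95% interval -0.32 to 0.05, edgeR adjusted p = 0.381) and -0.07 in each of the other comparisons (edgeR adjusted p = 0.832 for MS against Control and 0.784 for MS+EA against MS).

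Napepld encodes NAPE-PLD, the phospholipase D that forms anandamide from its precursor lipid. It had 15.0, 13.8 and 15.4 CPM among Control and 15.3, 15.8 and 15.4 CPM among MS rats. In C3, C10 and C16 of the MS+EA group it had 17.4, 13.9 and 11.8 CPM, so that this group held both the highest and the lowest rat. The log2 fold change was 0.08 in MS against Control rats (95% interval -0.22 to 0.37, edgeR adjusted p = 0.889) and -0.11 in MS+EA against MS rats (95% interval -0.41 to 0.19, edgeR adjusted p = 0.788).

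**Figure D1:**
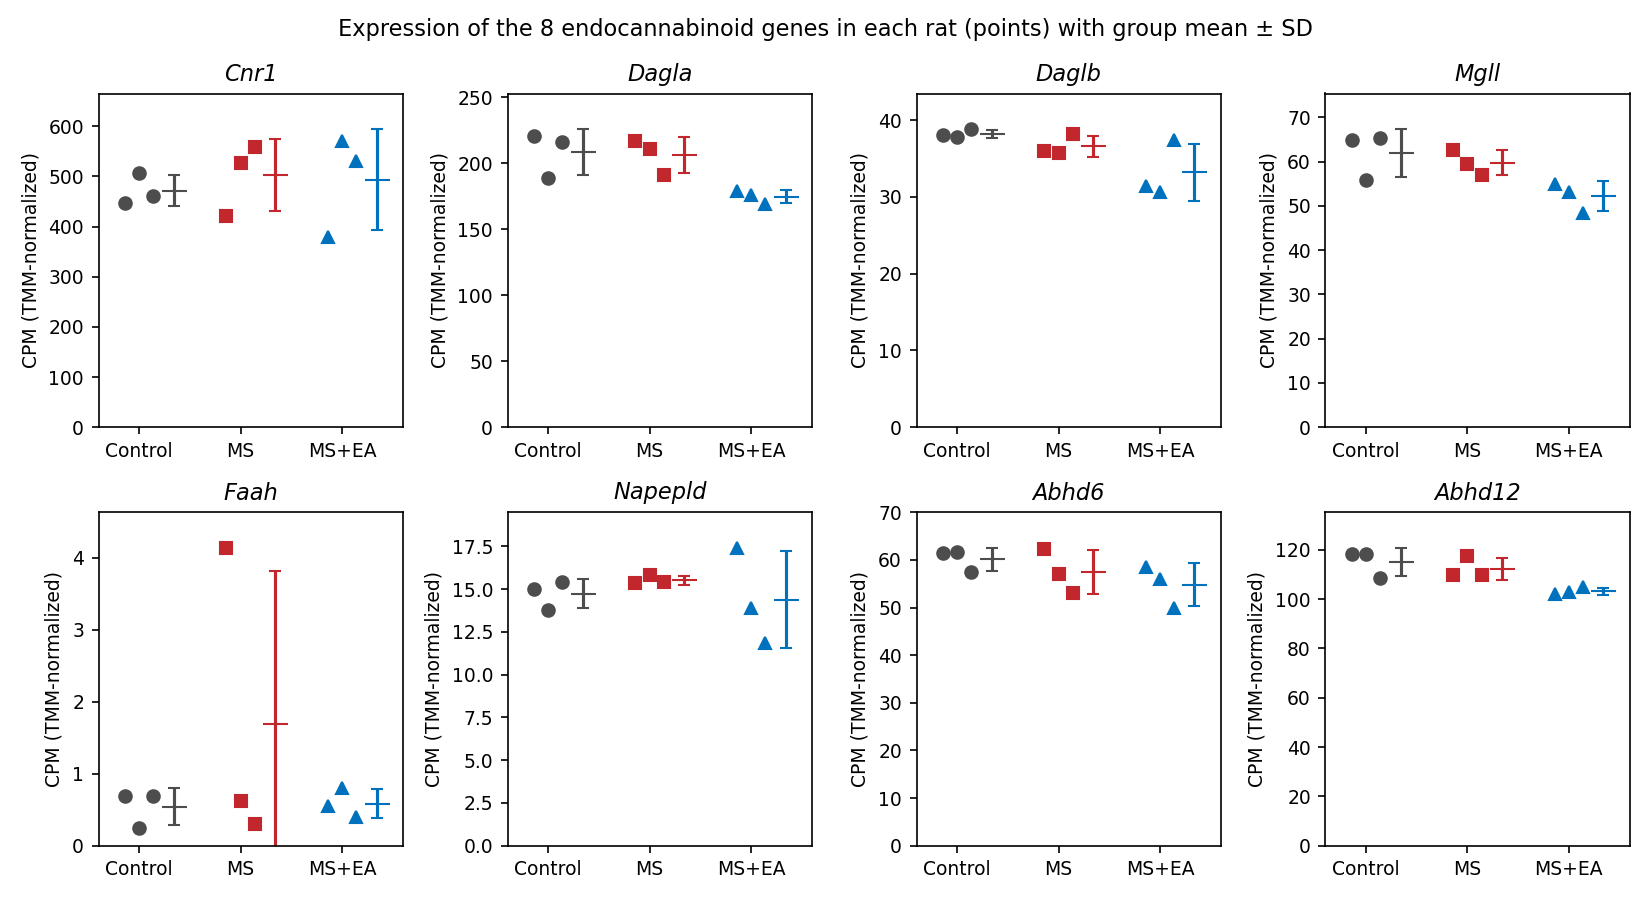
Expression of the 8 endocannabinoid genes, in TMM-normalized CPM on axes that start at 0, for each rat of the Control (circles), MS (squares) and MS+EA (triangles) groups, with the group mean and SD (n = 3) at the right of each set; the SD of Faah in MS rats is cut off at 0. The MS+EA rats lie below all other rats for Dagla, Mgll and Abhd12, and a single MS rat lies far above the rest for Faah.

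The separation of the MS+EA rats is given beside the same count over all tested genes, as a description. The 8 genes were chosen with earlier results of these data known, so they were not tested as a list. Against MS rats 3 of the 8 genes, Dagla, Mgll and Abhd12, had a lower range in MS+EA rats with no overlap, against 9.6% of the tested genes. Against Control rats 4 of the 8, Daglb in addition, did so, against 12.9%. None of the 8 was higher in MS+EA rats by range or at an unadjusted p under 0.05, where 8.27% and 13% of the tested genes had higher ranges than in MS and Control rats, and 6.01% and 11.9% were higher by that p. In MS against Control rats 0 of the 8 had ranges that did not overlap, where 17.6% of the tested genes did. Log2 fold changes were above 0 for 3 of the 8 genes in MS against Control, 0 in MS+EA against MS and 2 in MS+EA against Control rats, and for 49.7%, 50.1% and 50.9% of the tested genes. The median log2 fold change of the 8 genes was -0.03 in MS against Control, -0.13 in MS+EA against MS and -0.15 in MS+EA against Control rats, beside medians of -0.00, 0.00 and 0.01 over all tested genes. The mean CPM was lower in MS than in Control rats and lower again in MS+EA rats for 5 of the 8 genes, Dagla, Daglb, Mgll, Abhd6 and Abhd12, and for 23.1% of the tested genes. The comparisons share their Control, MS or MS+EA rats, and the 8 genes share the scaling of each library.

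For the 7 genes other than Faah, all 21 intervals of the 3 comparisons lay inside a fold change of 1.5 in either direction. The lowest bound was 0.741 times, for Mgll in MS+EA against Control rats, and the highest 1.31 times, for Cnr1 in MS against Control rats. These are intervals of single genes, without adjustment for their number.

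**Figure D2:**
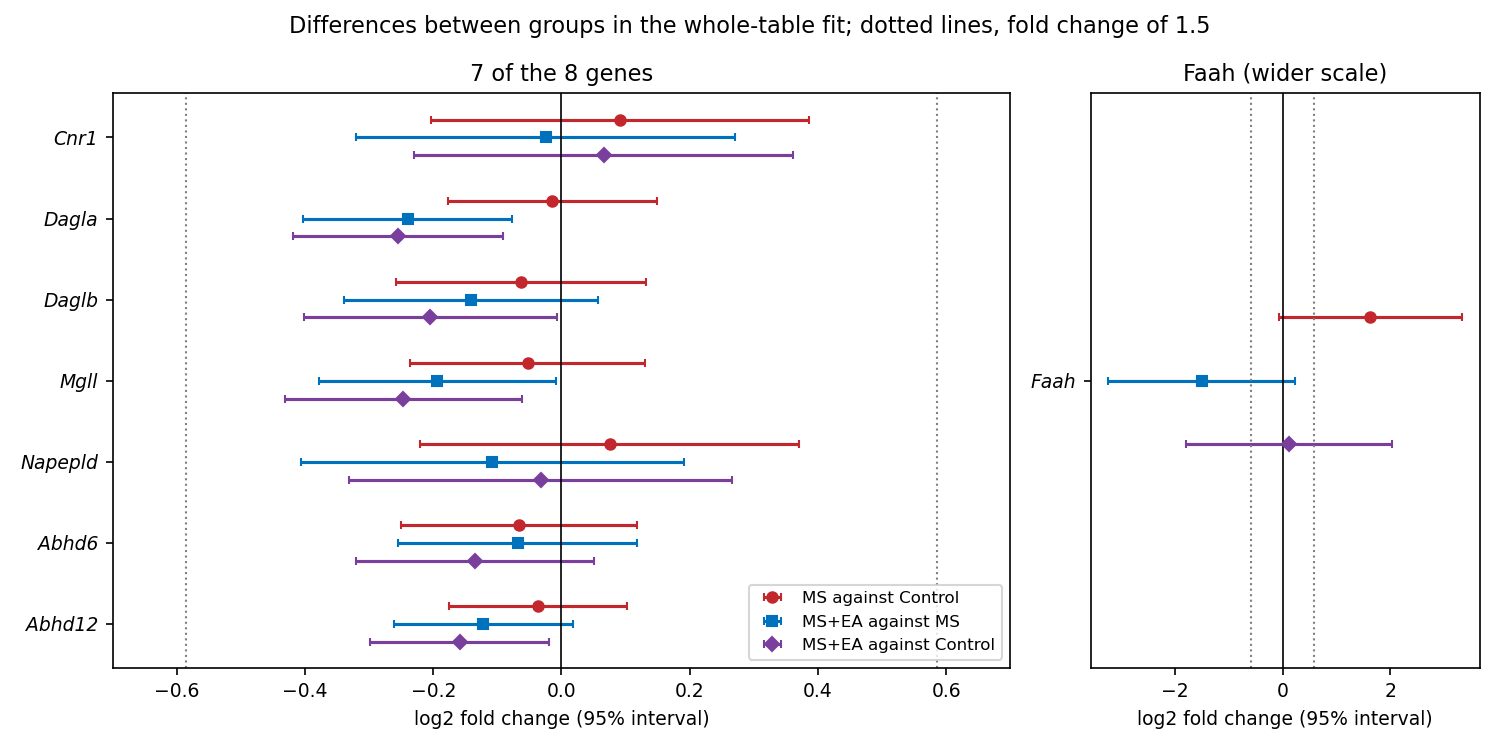
Log2 fold change with its 95% interval from the edgeR fit for each gene in MS against Control (circles), MS+EA against MS (squares) and MS+EA against Control (diamonds), with a wider scale for Faah at the right; dotted lines mark a fold change of 1.5. Intervals of Dagla and Mgll in both comparisons of MS+EA rats, and of Daglb and Abhd12 in MS+EA against Control, lie below 0, and no interval of the 7 genes reaches a dotted line.

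Ratios of counts within a rat do not depend on the scaling between libraries. They were set against each other between rats only, since the lengths of the transcripts were not used. Mgll had 0.294 to 0.302 counts per count of Dagla in Control rats, 0.282 to 0.298 in MS rats and 0.286 to 0.308 in MS+EA rats. Mgll and Dagla, a breakdown and a synthesis gene of 2-AG, thus stood in overlapping ratios in the 3 groups. Both were lower in MS+EA rats by CPM. No ratio was formed with Abhd6 or Abhd12. Dagla had at most 5.80 counts per count of Daglb in Control rats, at most 6.05 in MS rats and at most 5.74 in MS+EA rats. The lowest ratio, 4.52, was that of the MS+EA rat C16, the rat of its group with the highest Daglb and the lowest Dagla.

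**Figure D3:**
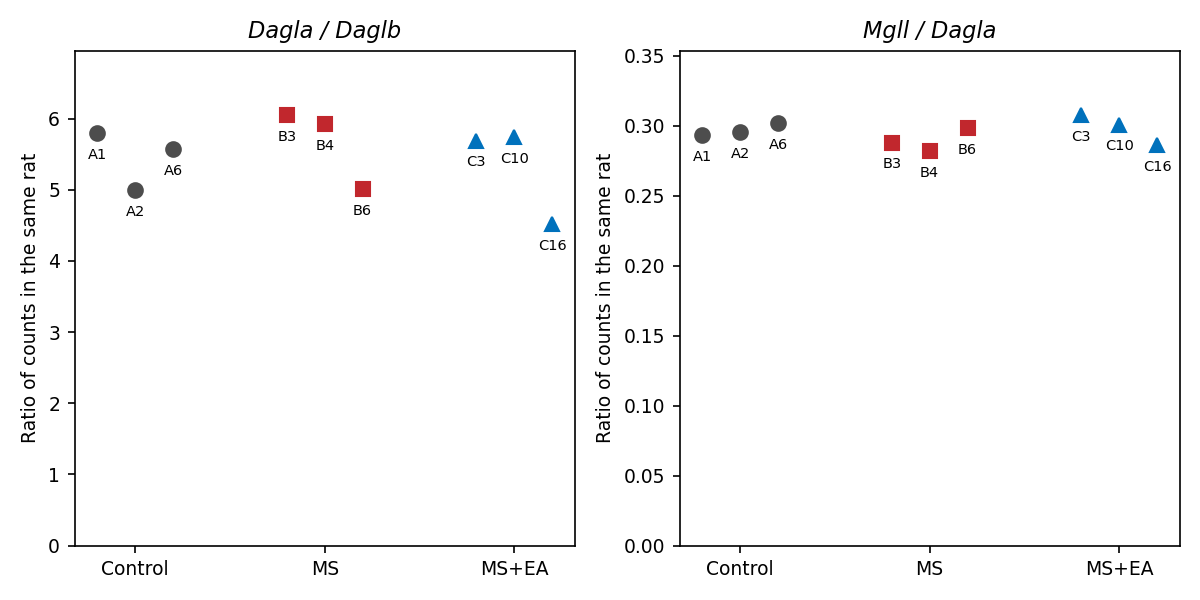
Ratio of the counts of Dagla to Daglb (left) and of Mgll to Dagla (right) in each rat, with axes that start at 0 and the rat's name below each point. The groups overlap in both ratios, and that of Mgll to Dagla stays between 0.282 and 0.308 in all 9 rats.

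Faah encodes fatty acid amide hydrolase, the main enzyme of anandamide breakdown, and its values are uncertain. The count table holds a row named Faah and a row named LOC100911581, and the current RefSeq table of the rat assembly GRCr8 gives the gene ID in the name of the latter the symbol Faah. How reads that match both rows were counted is not given in the sources used here. On the Faah row 13, 4 and 11 reads were counted for Control, 71, 10 and 5 for MS (71 in B3) and 8, 12 and 5 for MS+EA rats. B3 alone stood apart, and the other 8 rats had 4 to 13 reads. Faah had a log2 fold change in MS against Control rats of 1.63 (95% interval -0.07 to 3.33, edgeR adjusted p = 0.488) with B3 and -0.24 without it (edgeR adjusted p = 0.923). In MS+EA against MS rats it was -1.51 (edgeR adjusted p = 0.453) with B3 and 0.35 without it (edgeR adjusted p = 0.868).

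On the LOC100911581 row 231, 32 and 55 reads were counted for Control, 35, 42 and 32 for MS, and 24, 25 and 14 for MS+EA rats. Here the Control rat A1 stood apart from the other 8, and the MS+EA rats lay below both other groups. Its log2 fold change in MS+EA against Control rats was -1.99 (95% interval -3.19 to -0.79, edgeR adjusted p = 0.0561). It was -0.85 without A1 (edgeR adjusted p = 0.260) and -2.40 without the Control rat A2, where the row was called (edgeR adjusted p = 0.0253). In MS against Control rats the row had -1.44 (95% interval -2.57 to -0.30, edgeR adjusted p = 0.331), and -0.29 without A1 (edgeR adjusted p = 0.857). The Faah row held 67.0% of the reads of both rows in B3, 5.33% in A1 and between 11.1% and 32.4% in the other rats. Summed, the rows gave 13.1, 2.20 and 4.10 CPM for Control, 6.18, 3.25 and 2.22 CPM for MS, and 2.22, 2.48 and 1.51 CPM for MS+EA rats. A1 and B3 were the highest rats of their groups, and the 3 groups overlapped. The summed row, an alternative chosen after the data had been seen, gave a log2 fold change of -1.64 in MS+EA against Control rats (edgeR adjusted p = 0.110), and -0.60 without A1 (edgeR adjusted p = 0.547). In MS against Control rats it gave -0.74 (edgeR adjusted p = 0.657), and 0.31 without A1 (edgeR adjusted p = 0.890).

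**Figure D4:**
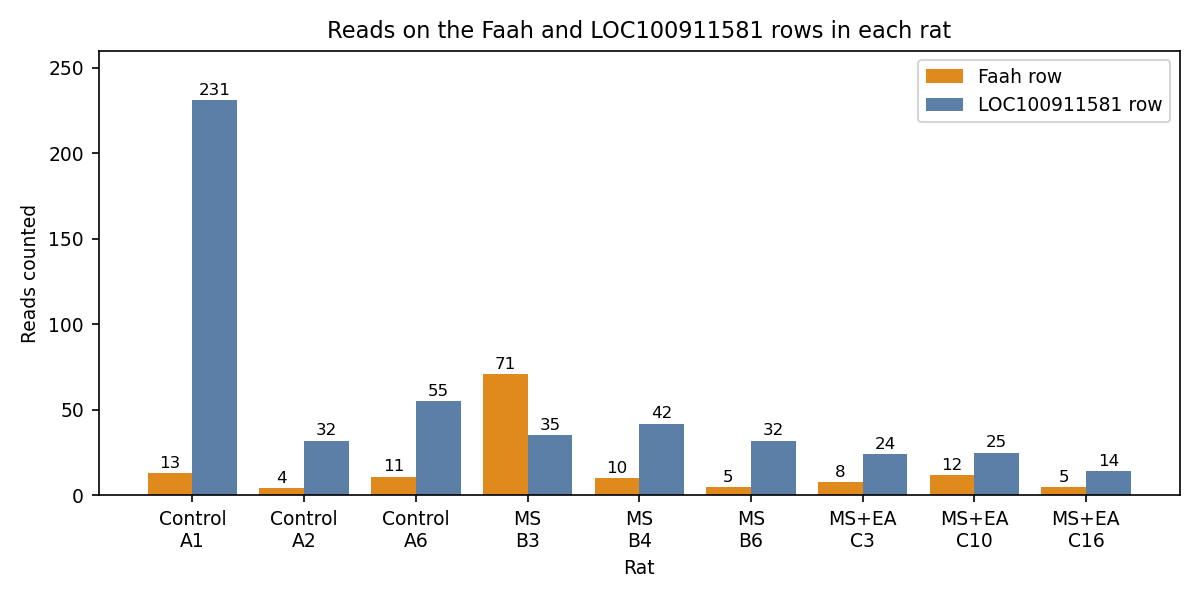
Reads counted on the Faah row (left bar) and on the LOC100911581 row (right bar) in each rat, with the number above each bar. The Control rat A1 has 231 reads on LOC100911581 and the MS rat B3 has 71 on Faah, while no other bar exceeds 55.

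A list of 33 other genes of the endocannabinoid pathway was described beside the 8. All 33 were in the table and 27 were tested. Of these, 0 were called in each of the 3 comparisons by edgeR, DESeq2 and limma-trend. At an unadjusted edgeR p under 0.05 there were 1 of 27 in MS against Control, 1 in MS+EA against MS and 2 in MS+EA against Control, beside 10.6%, 12.4% and 22.5% of all tested genes. Their median log2 fold changes were -0.03, -0.06 and -0.06 in that order. Receptors other than CB1 that respond to cannabinoids or related lipids included Gpr55, Gpr18 and Gpr119, which did not pass the filter on low counts, and Cnr2, Trpv1, Ppara and Pparg, of which 0 of 4 had an unadjusted p under 0.05 in any comparison.

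Gnai2, which encodes an inhibitory G protein subunit of the kind that CB1 couples to, was the lowest in p among these genes in both comparisons of MS+EA rats. Its log2 fold change was -0.26 against Control (edgeR adjusted p = 0.0750, and 0.0301 with DESeq2) and -0.17 against MS rats (edgeR adjusted p = 0.399). Plcb1, which encodes a phospholipase C that supplies diacylglycerol, had a log2 fold change of 0.32 in MS against Control rats (95% interval 0.04 to 0.59, edgeR adjusted p = 0.394) and -0.24 in MS+EA against MS rats (edgeR adjusted p = 0.453), both with the same MS rats. Gprasp1, whose product sorts receptors to lysosomes, was next in MS against Control rats at 0.26 (edgeR adjusted p = 0.523). Alox15, a lipoxygenase gene, had 0.63 in MS+EA against Control rats (95% interval 0.02 to 1.24, edgeR adjusted p = 0.209).

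Markers of the cell types in the tissue were summed in each rat, and no marker was at 0 in any group. The 6 markers of cortical excitatory neurons summed to 3895 to 4529 CPM in Control, 3970 to 4025 CPM in MS and 3386 to 3524 CPM in MS+EA rats, so that the MS+EA rats were lowest, as for Dagla, Mgll and Abhd12. Of these 6 markers, 2 were lower in MS+EA than in Control rats at an adjusted p under 0.05, namely the vesicular glutamate transporter gene Slc17a7 (log2 fold change -0.30, edgeR adjusted p = 0.0207) and Camk2a (-0.36, edgeR adjusted p = 0.0387). The other 4 did not pass. In that comparison 2 of the 6 had a log2 fold change above 0, the highest 0.29, and the median of the 6 was -0.01. The lower sum thus does not stand for each of the 6 markers. The 6 markers of cholecystokinin interneurons summed to 339 to 363 CPM in Control, 304 to 351 CPM in MS and 254 to 333 CPM in MS+EA rats. Of these 6, 0 had an adjusted p under 0.05 with edgeR or limma-trend in any comparison. With DESeq2 the defining marker Cck had one of 0.0337 in MS+EA against Control. In that comparison 2 of these 6 had an edgeR log2 fold change above 0, the highest 0.27, and the median was -0.12. The sum of these markers therefore does not stand for each of them either. The 7 microglial markers summed to 236 to 267 CPM, 225 to 254 CPM and 193 to 256 CPM in the same order, and the 7 astrocyte markers to 4514 to 5427 CPM, 5014 to 5238 CPM and 4218 to 5044 CPM. For the 7 oligodendrocyte markers the sums were 2023 to 3131 CPM, 1773 to 2822 CPM and 1962 to 4084 CPM. Those of 7 striatal markers, a region rich in Cnr1, were 136 to 160.1 CPM, 137 to 141 CPM and 123 to 169 CPM. The remaining lists, of other interneurons, oligodendrocyte precursors and endothelium, had 0 genes at an adjusted p under 0.05 in edgeR and summed to 624 to 682, 180 to 211 and 168 to 181 CPM in Control rats. In MS rats these sums were 650.2 to 773, 185 to 233 and 191 to 218 CPM, and in MS+EA rats 596 to 754, 152 to 213 and 179 to 211 CPM. The part of these markers, of library size and of the non-coding share in the lower values of MS+EA rats was not tested.

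The genes whose pattern over the 9 rats was most like that of a member were taken by Pearson's r of log2 CPM among all tested genes, as a description. The closest to Cnr1 were Socs5 (r = 0.968), Atp6v1a (r = 0.966) and Atp6v1c1 (r = 0.962). Those closest to Dagla were LOC102554492 (r = 0.983), Ppp1r37 (r = 0.981) and Gal3st3 (r = 0.979), and those closest to Mgll were Dgkz (r = 0.986), Neurl1 (r = 0.980) and Cacnb3 (r = 0.979). For Daglb they were Rnf4, H2afy and Pgam1 (r = 0.938 to 0.968), for Abhd6 Sarm1, Zdhhc14 and Ccdc153 (r = 0.929 to 0.964), for Abhd12 Pole3, Papss2 and Gid8 (r = 0.949 to 0.965), and for Napepld Rgs20 (r = 0.967) and Kcnd2 (r = 0.966). Faah reached at most 0.899, with Inf2, where Spearman's rho was 0.383. No member was among the 3 genes closest to another. The 9 points share libraries and scaling, and the highest of 16836 values is large for any gene.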

How the data were processed

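Frontal cortex RNA without rRNA was sequenced on an Illumina instrument. The authors filtered reads by quality (FastQC), aligned them with HISAT2 (version 2.0.4 in the submitters' processing notes) to the Rnor_6.0 assembly and deposited raw counts of reads per gene. The counting program, its strand setting and the treatment of reads with several locations are not given in the sources used here, so reads from overlapping or antisense genes cannot be told apart.

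Counts were analysed in R 4.3.3 with edgeR 4.0.16. Genes were kept by filterByExpr (minimum count 10), scaled by TMM and fitted with a mean per group over all 9 rats (glmQLFit and glmQLFTest, defaults), with Benjamini-Hochberg adjustment over 16837 genes. Thresholds follow the study's methods, whose EB-Seq program was not used. Intervals rest on the standard error that the F statistic implies and on the total degrees of freedom of the fit. Likeness used log2(CPM + 0.5). The steps were tested on simulated data. Alternatives used DESeq2 1.42.0, limma 3.58.1, other scalings, filters and forms of the fit, and the omission of each rat. Figures were drawn with matplotlib 3.10.9.

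The genes and lists were chosen with earlier results of these data known. Named are the 8 members, of 33 pathway genes those at an adjusted p under 0.05 or else the 2 per comparison with the smallest unadjusted p, the 3 tested genes most like each member (1 of those for Napepld is not reported here), and marker lists by counts and sums. Slc17a7, Camk2a, Cck, Cnr2, Trpv1, Ppara, Pparg, Gpr55, Gpr18 and Gpr119 fall outside that rule and were named after their values were seen. The same holds for the LOC100911581 row, whose values without 1 rat were also added after the data had been seen. All 8 symbols matched the RefSeq table of GRCr8, a build other than that of the counts, so no coordinates are given. Levels were not compared between genes, since transcript lengths were not used here.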

Additional observations from a re-analysis of the deposited data

How the results depend on the processing

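None of the 8 genes was called in any comparison under the 17 alternative fits or without a fold change limit. Faah had no adjusted p in DESeq2. It was not tested when at least 10 counts in every rat were required, nor with only the 6 rats compared in MS+EA against MS. No paired analysis was possible because the groups compared share fewer than 2 replicate numbers and are different animals. The log2 fold changes of Dagla, Daglb, Mgll, Abhd6 and Abhd12 stayed below 0 in both comparisons of MS+EA rats under all 17 alternatives. Their unadjusted p depended on the scaling. With total counts in place of TMM, edgeR's unadjusted p against Control rats was 0.071 for Daglb and 0.064 for Abhd12. Against MS rats it was 0.106 for Mgll. Dagla in both comparisons and Mgll against Control rats stayed under 0.05. The order of the genes per kilobase was not run, since transcript lengths were not used here.

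Over all genes, 4 were called in MS against Control, against 70 with DESeq2, 207 with all genes of at least 1 count, 11 with the 6 rats compared, and 2 to 22 with 1 rat left out. In MS+EA against MS, 3 were called, against 37 with DESeq2, 1 with the bias-adjusted fit, 72 with all genes of at least 1 count, 0 with at least 10 counts in every rat (1951 genes at an unadjusted p under 0.05), 1 with the 6 rats compared, and 1 to 4 with 1 rat left out. In MS+EA against Control, 230 were called, against 469 with all genes of at least 1 count, 910 without a fold change limit, 71 without the Control rat A1, 121 without the MS+EA rat C10, and 71 to 304 with any 1 rat left out. With total counts in place of TMM, 70.1% instead of 48.4% of the genes at an unadjusted p under 0.05 were higher in MS+EA than in MS rats. By Spearman's rho, 4 of the 24 genes most like a member remained.

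Signs turned only for log2 fold changes whose intervals included 0. That of Cnr1 in MS+EA against MS became 0.0154 with total counts, and lay between -0.14 and 0.14 with 1 rat left out. With 1 rat left out, Dagla in MS against Control lay between -0.0862 and 0.0382, Cnr1 in MS+EA against Control between -0.051 and 0.23, Napepld between -0.26 and 0.0105 in MS+EA against MS and between -0.19 and 0.0851 in MS+EA against Control, and Faah between -0.24 and 2.12, -2.0 and 0.35, and -0.22 and 0.35 in the 3 comparisons. With the Faah and LOC100911581 rows summed, Faah was at -0.74 in MS against Control and -1.64 in MS+EA against Control, at -1.25 and -1.64 without B3, and at -0.60 in the latter without A1. The cause of these changes was not tested.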
